A study of Mus musculus with 6 samples.

Results

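The oligodendrocyte myelin protein genes Mbp, Mobp, Mog, Mag, Cnp, Mal, Cldn11, Ugt8a and Opalin were examined in the cochlear nucleus of mice at postnatal day 21, after the auditory nerve of 1 ear had been silenced. The 9 genes were given by name, and every probe set (a group of short probes read as 1 value) that carried 1 of these symbols alone in the platform annotation was taken. This gave 21 probe sets of 8 genes among 22690 on the array, and Opalin had none and was not analysed here. All 21 passed the minimum brightness, a mean log2 value above 4 over the 6 arrays, which 15298 probe sets passed in all.

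Tetrodotoxin, a toxin that blocks voltage-gated sodium channels and with them action potentials, was delivered into 1 cochlea by osmotic pump for 24 h. The ipsilateral group was the cochlear nucleus on the infused side, and the contralateral group was the nucleus on the other side of mice that had all received the toxin. Each group had 3 biological replicates, each 1 array with RNA from the pooled tissue of 10 to 12 mice. No sample from untreated mice was analysed here, the sources used here give neither strain nor sex, and a difference between sides may come from either side. The comparison addressed which genes are regulated by transcription after loss of activity in the nerve. Levels and differences are on the log2 scale of the deposited GCRMA values, where a difference of 1 is a doubling of signal.

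Oligodendrocytes wrap the axons of the central nervous system in myelin, a stack of membrane that speeds conduction, and in the auditory brainstem this serves precise timing. Myelin basic protein (Mbp) holds the cytoplasmic faces of the stack together, and Mobp is another small basic protein of compact myelin. Cnp lies in the cytoplasmic channels beside the compact membrane, Mag on the inner face toward the axon and Mog on the outermost surface. Mal is a proteolipid of membrane transport, Cldn11 forms the tight junctions of the sheath, and Ugt8a is the enzyme that makes galactosylceramide, the main glycolipid of myelin. Mal is also made by Schwann cells, the myelinating cells of peripheral nerve, and Cldn11 by cells of the meninges. Transcription of many myelin genes depends on SOX10 and MYRF, factors of the oligodendrocyte lineage.

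The regions upstream of 3 of these genes are shown because their letters differ widely in matches to the core of the SOX motif, ACAAAG or its complement CTTTGT. The windows hold the 250 bases before the gene start, 5′ to 3′ on the gene's strand, from RefSeq (build GRCm38.p6), with matches in capitals.
Mobp (chr9:120149492-120149741, plus strand): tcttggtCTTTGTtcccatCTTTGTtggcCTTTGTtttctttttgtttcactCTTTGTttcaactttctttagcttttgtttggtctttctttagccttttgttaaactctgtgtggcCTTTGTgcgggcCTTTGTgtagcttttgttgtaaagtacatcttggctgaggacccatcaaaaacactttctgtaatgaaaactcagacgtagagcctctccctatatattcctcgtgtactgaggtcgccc
Cnp (chr11:100574689-100574938, plus strand): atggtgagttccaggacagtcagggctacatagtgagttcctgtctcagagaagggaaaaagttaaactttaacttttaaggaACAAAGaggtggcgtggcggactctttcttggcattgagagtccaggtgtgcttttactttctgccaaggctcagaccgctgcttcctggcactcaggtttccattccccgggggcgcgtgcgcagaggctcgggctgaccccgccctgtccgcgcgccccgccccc
Ugt8a (chr3:125938653-125938902, minus strand): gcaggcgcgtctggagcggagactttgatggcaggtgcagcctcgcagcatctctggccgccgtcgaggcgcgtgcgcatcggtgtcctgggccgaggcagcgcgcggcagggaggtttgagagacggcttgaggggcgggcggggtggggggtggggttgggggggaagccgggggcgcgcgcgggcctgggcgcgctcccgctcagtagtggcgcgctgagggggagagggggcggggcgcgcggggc
On both strands together Mobp held 6 matches, Cnp 1 and Ugt8a 0. Of 32851 such windows, 16.5% held at least 1 match and 1.74% at least 2. Only 1 window, that of Mobp, held 6 or more. The Mobp window had 40.8% G and C, against 57.2% for Cnp and 76.8% for Ugt8a. Of the other members, Opalin held 1 match, the windows of Mag 0 or 1, and Mog, Mal and Cldn11 0. The letters ACAATG were counted too and gave 0 matches in Mobp, Cnp and Ugt8a, where 10.7% of all windows held at least 1. CTGGCAC gave 1 match in Cnp and 0 in Mobp and Ugt8a, where 4.19% held at least 1. ACAAAG was chosen as the motif after the sequences were seen, and a match is a description of letters, not of a bound site.

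No myelin gene passed the test between the sides, although the values of the sides did not overlap for 4 of the 21 probe sets, all of Mbp (6.26% of all tested). In limma, fitted over all 15298 probe sets, 0 of the 21 had a Benjamini-Hochberg adjusted p under 0.05 (background 0.0% of all tested), and every one of them had an adjusted p of 1.00. The count was also 0 of 21 at an unadjusted limma p under 0.05, which 2.38% of all tested probe sets passed. The ipsilateral mean was higher for 15 of the 21 probe sets and lower for 6, beside 48.2% higher among all tested. Their median difference was 0.10, against -0.01 over all tested, and single differences ran from -0.19 to 0.30. In this bulk tissue a change in the number of oligodendrocytes and a change in RNA per cell cannot be told apart.

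The precision differed between genes. The 95% interval of the difference was narrowest for Mbp 1419646_a_at, from -0.08 to 0.33, and widest for Ugt8a 1419064_a_at, from -0.95 to 1.23. The exact permutation test of 3 against 3 arrays cannot give a two-sided p below 0.1. Precision was limited by the number of arrays and by the spread between replicates. The replicate SD was 0.05 for Mbp 1419646_a_at and 0.73 for Ugt8a 1419064_a_at. The median of 0.10 depended on single arrays: it was 0.03 without contralateral replicate 1, 0.05 without contralateral replicate 2 and 0.06 without ipsilateral replicate 2.

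**Figure D1:**
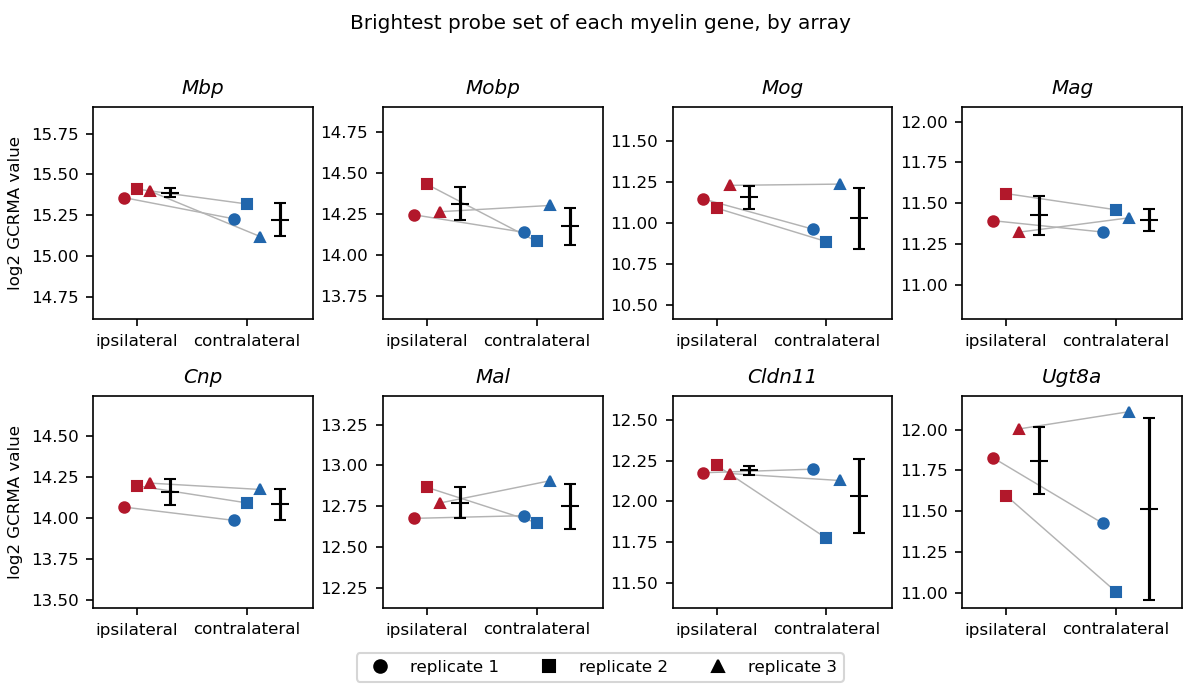
Log2 GCRMA value of the brightest probe set of each of the 8 myelin genes (vertical axis, the same span in each panel) on the 3 ipsilateral (red) and 3 contralateral (blue) arrays. Symbols mark the replicate number, grey lines join arrays of the same number, and black bars give the mean and SD. Mbp alone keeps its 3 ipsilateral values above the contralateral ones, and Ugt8a has the widest contralateral spread.

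Mbp was read by 8 probe sets. The brightest (1433532_a_at) measured 15.36, 15.41 and 15.40 on ipsilateral arrays 1, 2 and 3, against 15.23, 15.32 and 15.12 on the contralateral arrays. All 3 ipsilateral values thus lay above all 3 contralateral ones, by little. The difference was 0.17 (SE 0.09), a 1.12-fold higher signal with a 95% interval of 0.96-fold to 1.31-fold (limma, unadjusted p = 0.115, adjusted p = 1.00).

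The second (1456228_x_at) averaged 15.39 ± 0.03 on the ipsilateral side and 15.20 ± 0.08 on the contralateral side (SD, n = 3 each), with a difference of 0.19. A further bright set, 1419646_a_at, averaged 14.86 ± 0.04 and 14.74 ± 0.06 on the ipsilateral and contralateral sides. Across all members the sides did not overlap for 4 probe sets, and these 3 were the ones higher on the ipsilateral side. All were of Mbp, as was the 1 that was lower. Among all tested probe sets 2.81% were higher and 3.44% lower without overlap. The remaining bright sets, 1436201_x_at and 1454651_x_at, differed by 0.12 and 0.10, and the sides overlapped.

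The 3 dimmer Mbp probe sets had lower ipsilateral means, in 2 of them with a direction that turned on single arrays. Probe set 1451961_a_at averaged 13.71 ± 0.25 on the ipsilateral side and 13.79 ± 0.38 on the contralateral side, a difference of -0.07 (SE 0.21) that was 0.04 without ipsilateral replicate 2, 0.02 without contralateral replicate 2 and 0.05 without contralateral replicate 3. Far dimmer was 1425263_a_at, at 6.58 ± 0.38 and 6.72 ± 0.23 on the ipsilateral and contralateral sides. Its differences were 0.06, 0.33 and -0.81 in replicates 1, 2 and 3, and without ipsilateral replicate 3 the mean difference was 0.08. The dimmest, 1425264_s_at, measured 5.62, 5.68 and 5.62 ipsilaterally and 5.94, 5.78 and 5.78 contralaterally. Its difference was -0.19 (SE 0.09, limma, unadjusted p = 0.0729, adjusted p = 1.00). It was the 1 member lower in 3 of 3 replicates, where 13.0% of all tested probe sets were. Which Mbp transcripts each set reads was not checked. For Mbp as a gene the 8 sets therefore gave no single direction, with 5 higher and 3 lower.

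Mobp, the other basic protein gene of compact myelin, was read by 3 probe sets. The brightest (1433785_at) measured 14.25, 14.43 and 14.26 ipsilaterally and 14.14, 14.08 and 14.30 contralaterally, so that contralateral array 3 lay above 2 of the ipsilateral arrays. Its difference was 0.14 (SE 0.10, limma adjusted p = 1.00). The others differed by 0.04 and -0.14. Cnp behaved alike: its brightest set averaged 14.16 ± 0.08 and 14.08 ± 0.09 on the ipsilateral and contralateral sides, and its 3 sets differed by 0.08, 0.13 and -0.08. The sides overlapped for all 6 probe sets of these genes.

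Mag and Mog, the adhesion and surface proteins, each had 1 probe set. Mag measured 11.39, 11.56 and 11.32 on the ipsilateral arrays and 11.32, 11.46 and 11.41 on the contralateral arrays, a difference of 0.03 (95% interval -0.21 to 0.27). Mog measured 11.15, 11.09 and 11.23 ipsilaterally and 10.96, 10.89 and 11.24 contralaterally, a difference of 0.13 (-0.15 to 0.41). For Mag the ipsilateral and contralateral values were mixed throughout. For Mog the ipsilateral arrays lay above contralateral arrays 1 and 2, and contralateral array 3 lay above all of them.

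For the junction protein gene Cldn11 the values were 12.18, 12.22 and 12.17 on the ipsilateral arrays, against 12.20, 11.77 and 12.13 on the contralateral arrays. Contralateral array 2 alone stood low, and without it the difference was 0.03 in place of 0.16. Mal averaged 12.77 ± 0.10 on the ipsilateral side and 12.75 ± 0.14 on the contralateral side for its brighter set, with a difference of 0.02, and its dimmer set differed by -0.07. Mal was thus the gene of smallest difference by its brightest set.

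Ugt8a had the largest difference of the members and the largest spread of the brightest sets. Its brighter set (1419063_at) measured 11.83, 11.60 and 12.00 ipsilaterally and 11.43, 11.01 and 12.11 contralaterally. Array 3 was the highest on both sides, and the contralateral arrays alone spanned more than the ipsilateral ones. The difference was 0.30 (SE 0.27), a 1.23-fold higher signal with an interval from 0.78-fold to 1.92-fold (limma, unadjusted p = 0.316, adjusted p = 1.00). Without contralateral replicate 3 it was 0.59, with an unadjusted limma p of 0.0186 (3.29% of all tested were under 0.05 there) and an adjusted p of 0.999. Without contralateral replicate 2 it was 0.04. Of the 1334 tested probe sets with a mean between 10 and 12, 0.825% had a replicate SD as large as its 0.42. Its dimmer set (1419064_a_at) measured 8.15, 7.49 and 8.71 ipsilaterally and 7.43, 7.57 and 8.92 contralaterally, again highest on array 3 of both sides.

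Read by replicate number, the members divided. In replicate 1 the ipsilateral array was the higher one for 18 of the 21 probe sets, and in replicate 2 for 15. In replicate 3 it was higher for 7, of which 5 were the bright sets of Mbp and the others those of Cnp (0.04) and Cldn11 (0.04). Among all tested probe sets 45.5%, 52.3% and 49.0% were higher in replicates 1, 2 and 3. The median difference of the members was 0.14, 0.10 and -0.05 in replicates 1, 2 and 3. A higher value in 3 of 3 replicates was seen in 6 of 21, the 5 bright sets of Mbp and the brightest of Cnp, where 10.7% of all tested had it.

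Both arrays of replicate 3 also stood apart in hybridization controls, bacterial RNAs added before hybridization. The bioB control (3′ set) read 8.36 on the ipsilateral and 8.69 on the contralateral array of replicate 3, and 9.59 to 9.90 on the arrays of replicates 1 and 2. The bioD control (3′ set) read 12.96 and 13.05 on those arrays, and 14.03 to 14.20 on the others. The bioC control (3′ set) was instead higher, at 9.87 and 9.98 against 9.29 to 9.68. The part of whatever set these controls apart in the pattern of replicate 3 was not tested. With the replicate number as a block in limma, 0 of 21 member probe sets had an unadjusted p under 0.05, where 3.72% of all tested did, and the smallest adjusted p among them was 0.991.

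**Figure D2:**
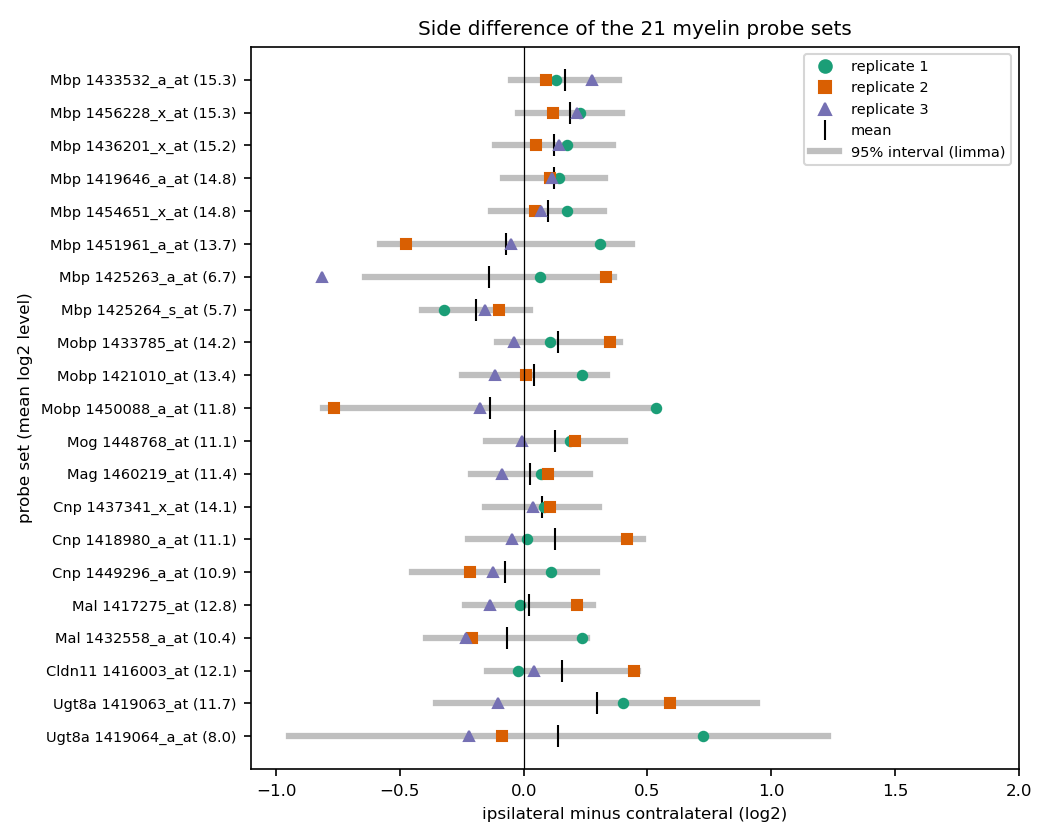
Ipsilateral minus contralateral log2 difference (horizontal axis) of the 21 myelin probe sets, each named with its mean log2 level. Coloured symbols are the differences within replicates 1, 2 and 3, the black tick is their mean and the grey bar is the 95% interval from limma. All 21 intervals include 0, and the replicate 3 symbols lie left of 0 for 14 of the 21.

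The myelin genes were among the brightest on the array, where a signal may be held down by a ceiling. Probe sets of Mbp held brightness ranks 1, 2, 3, 5 and 6 of 15298, and 7 of the 34 tested probe sets with a mean of 14 or more were members. The highest value of a gene on any array was 15.85, of the choroid plexus gene Ttr on ipsilateral array 1, and that of Mbp was 15.41. Control probe sets are left out of these maxima. Among genes Mbp had the highest value on ipsilateral arrays 2 and 3, where control probe sets reached 16.01 and 15.48. Single probes and scanner readings were not used here, so saturation itself was not measured.

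Bright probe sets varied little between replicates. The median replicate SD was 0.23 for tested probe sets with a mean from 4 to 6, 0.11 from 10 to 12 and 0.08 from 14 to 16. The 7 members of the brightest class had a median SD of 0.09 and a median absolute difference of 0.12, against 0.07 for all 34. The 5 bright sets of Mbp spanned 0.23 to 0.29 over the 6 arrays, and the dimmer set 1451961_a_at spanned 0.69.

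Most probe sets of the brightest class had a higher ipsilateral mean. Of the 27 probe sets with a mean of 14 or more that were no members, 21 were higher and 6 lower, with a median difference of 0.05 and the lowest at -1.89 (Ttr). All 7 members of that class were higher, with a median of 0.12. By replicate the members and the others differed: the ipsilateral array was the higher one for 7, 7 and 6 of the 7 members in replicates 1, 2 and 3, and for 19, 13 and 24 of the 27 others. This difference between members and others was not tested. Among the 422 tested probe sets with a mean of 12 or more, 11 of them members, 59.7% had a higher ipsilateral mean, 17.1% were higher in 3 of 3 replicates and 7.82% did not overlap. An unadjusted limma p under 0.05 was reached by 0.711% of the 422. The members of mean under 14 were higher in 8 of 14 cases, with a median of 0.02. With a variance estimated as a function of brightness (trended and robust in limma), 3 of the Mbp sets had an unadjusted p under 0.05, against 2.06% of all tested and 11.8% of the 34, and their adjusted p stayed at 1.00. How much of the difference in the 5 bright sets of Mbp is shared by bright probe sets in general was not tested.

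**Figure D3:**
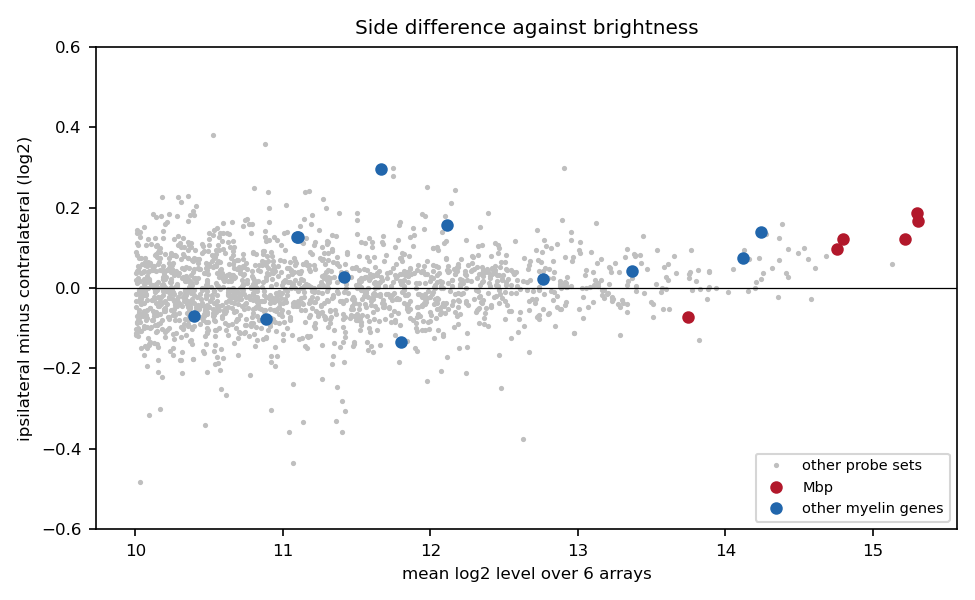
Ipsilateral minus contralateral log2 difference (vertical axis, drawn from -0.6 to 0.6, which leaves out 4 of 1756 probe sets) against the mean log2 level over 6 arrays (horizontal axis, from 10 upward). Red points are Mbp, blue points the other myelin genes and grey points all other tested probe sets. Above a mean of 14 most points of every colour lie above 0.

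A second pattern ran through some dimmer probe sets of the same genes. Mobp 1450088_a_at measured 11.79, 11.39 and 12.02 ipsilaterally and 11.26, 12.16 and 12.19 contralaterally, and Mal 1432558_a_at 10.38, 10.33 and 10.38 against 10.15, 10.54 and 10.61. In both, ipsilateral array 2 and contralateral array 1 were the lowest, as they were in Mbp 1451961_a_at and Ugt8a 1419064_a_at. These arrays were the lowest ones for 4 of 21 member probe sets (19.0%) and for 9.01% of all tested. This was noticed after the values were seen. The brightest sets of these genes did not follow it.

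The same arrays had the widest gap between the 3′ and the 5′ control probe sets of Gapdh and of the transferrin receptor, a measure of RNA length. For Gapdh the gap was -0.02, 0.20 and -0.08 on ipsilateral arrays 1, 2 and 3, and 0.10, -0.18 and -0.04 on the contralateral arrays. For the transferrin receptor it was 1.72, 2.28 and 1.75 ipsilaterally and 1.90, 1.17 and 1.59 contralaterally. The Actb gap was also widest on ipsilateral array 2, at 1.30, but contralateral array 1 was not second, at 1.22. Where in each transcript the member probe sets lie was not checked, and the part of RNA quality in the pattern was not tested. With both arrays left out, a setting added once the values were known, the median difference of the 21 probe sets was 0.01 and 0 passed at an unadjusted limma p under 0.05.

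**Figure D4:**
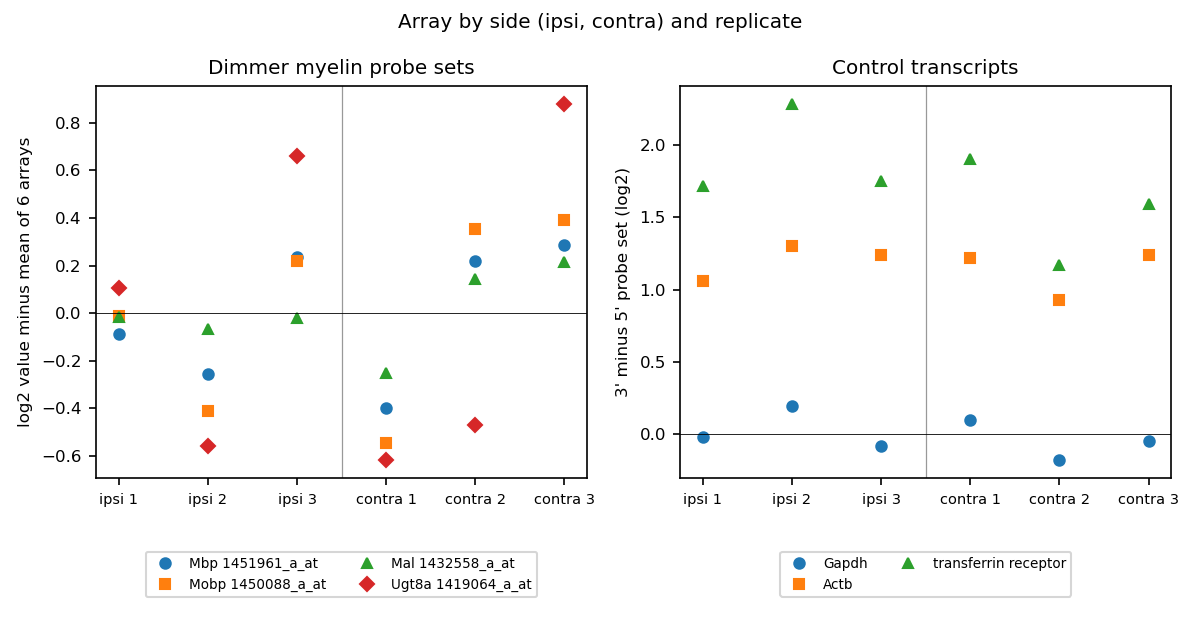
Left, log2 value of 4 dimmer myelin probe sets minus their own mean over the 6 arrays. Right, 3′ minus 5′ control probe set (log2) of 3 control transcripts on the same arrays, ipsilateral first. All 4 probe sets are lowest on ipsilateral array 2 and contralateral array 1, where the gaps of Gapdh and the transferrin receptor are widest.

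The brightest sets of the 8 genes did not vary as 1 block over the 6 arrays. Pearson's r between pairs of genes ranged from -0.30 to 0.98 over 28 pairs, with a median of 0.48, as a description over 6 arrays that share normalization. Mog and Ugt8a were the most alike (0.98), and Mobp and Mal came next (0.82). Mbp had an r between -0.27 and 0.28 with each of the others. The mean of the 8 genes was 12.86, 12.92 and 12.92 on the ipsilateral arrays and 12.74, 12.66 and 12.92 on the contralateral arrays, so contralateral array 3 reached the ipsilateral level. Its closest matches among 8746 other genes were Bbs9 (r = 0.98), Gad2 (0.98), E2f5 (0.98), Zfp120 (0.97), Ganab (0.97), Pcyt2 (0.97), Wdr90 (0.96) and Selplg (0.96). An r above 0.9 was found for 94 genes, or 1.07%, and the named ones are the highest of 8746 over only 6 arrays.

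Other genes of mature oligodendrocytes and myelin did not pass the test between the sides either. The limma intervals of their differences were 0.40 to 0.99 wide on the log2 scale, too wide to show that the sides were equal. Of 27 such genes listed 19 were tested, 10 higher and 9 lower on the ipsilateral side, with a median difference of 0.03 and 0 past an unadjusted limma p of 0.05. The leading ones by p were the phosphatase gene Mtmr2 (0.16), Aspa, an enzyme that breaks down N-acetylaspartate (0.10), and the gap junction gene Gjb1 (-0.18). By replicate they divided as the members did, with 16, 13 and 3 of 19 higher in replicates 1, 2 and 3. Their mean level was 9.94, 9.91 and 9.91 on the ipsilateral arrays and 9.84, 9.85 and 10.06 on the contralateral arrays.

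Genes for the synthesis and turnover of myelin lipids, the pathway of Ugt8a, were higher in 11 of 13 cases, with a median difference of 0.09 and 0 past an unadjusted limma p of 0.05. The lysosomal enzymes Galc and Arsa, which degrade galactosylceramide and sulfatide, differed by 0.18 (SE 0.10) and 0.14 (SE 0.10), and Psap, the precursor of their activator proteins, by 0.09. A list of transcription factors of the lineage also held Carm1, a methyltransferase gene. Of the 9 genes tested from this list 5 were higher, with a median of 0.02. Sox10 averaged 8.37 ± 0.20 ipsilaterally and 8.29 ± 0.27 contralaterally (n = 3 each). Nkx6-2 differed by -0.15, Carm1 by -0.10 and Tcf7l2 by 0.12. None of the 9 had an unadjusted limma p under 0.05.

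Markers of precursor and premyelinating cells were tested for 6 of 12 genes, 4 of them higher. Bmp4, a signal that holds back oligodendrocyte differentiation, averaged 5.63 ± 0.17 ipsilaterally and 5.98 ± 0.22 contralaterally, a difference of -0.34 (limma, unadjusted p = 0.0514, adjusted p = 1.00). With the replicate block the unadjusted limma p was 0.0210 and the adjusted p = 0.991. Vcan, a matrix proteoglycan gene, differed by -0.20 and Itpr2 by 0.12. Of the Schwann cell markers 2 of 11 were bright enough, Pmp22 at a mean of 9.36 (difference 0.10) and Ncmap at 4.32 (-0.03). Sox10, which oligodendrocytes share with Schwann cells, had a mean of 8.33.

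Markers of other cells were read on the same arrays. Microglia markers were higher for 9 of 10 genes with a median of 0.17. Of them 3, C1qb (0.38), Cd68 (0.41) and Aif1 (0.26), had an unadjusted limma p under 0.05, each with an adjusted p of 1.00. Among all tested probe sets 2.38% did. Their mean levels were 8.38, 5.87 and 4.64 in that order, so Aif1 lay close to the brightness minimum of 4 and Cd68 was dim. The 10 microglia markers too were high on contralateral array 3. Their mean level was 7.18, 7.08 and 7.15 on the ipsilateral and 6.84, 6.91 and 7.16 on the contralateral arrays. Of 14 astrocyte genes 11 had a higher ipsilateral mean, with a median of 0.04. By replicate 5, 13 and 7 of the 14 were higher in replicates 1, 2 and 3. The 3 of smallest p were Sox9 (0.27), Aqp4 (0.11) and Slc1a2 (0.09), and Slc1a2 was higher in replicate 2 alone. Pan-neuronal markers were higher for 7 of 14 and lower for 7, with a median of 0.01 and differences from -0.20 to 0.32. The 3 of smallest p, Nefh (0.19), Rbfox3 (0.32) and Nefm (0.08), were all among the higher ones. Endothelial markers were higher for 3 of 9, with differences from -0.41 to 0.13. The 3 of smallest p, Eng (-0.31), Kdr (-0.41, at a mean level of 4.91) and Slco1a4 (-0.16), were all among the lower ones. Meningeal markers were higher for 4 of 10, with Slc6a20a at -0.29, Lum at -0.31 (at a mean level of 4.27) and Col3a1 at 0.14.

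Choroid plexus markers varied most, with all 8 lower on the ipsilateral side (median -1.74). Their mean was 9.28, 5.38 and 5.50 on the ipsilateral arrays and 8.40, 8.14 and 7.72 on the contralateral arrays. Ttr, Kcne2 and Folr1 differed by -1.89, -2.29 and -2.12. With this level as a covariate the median difference of the myelin probe sets was 0.02, and the 5 bright sets of Mbp differed by 0.07 to 0.17. The part of any of these cell types in the myelin values was not tested beyond this covariate.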

How the data were processed

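RNA of 6 pooled cochlear nucleus samples, 3 ipsilateral and 3 contralateral, was measured on 1 Affymetrix array each. The authors deposited log2 values per probe set, made with GCRMA per the submitters' processing notes, whose version is not given in the sources used here. GCRMA corrects background by probe sequence, normalizes between arrays and summarises probes, so single probes and saturation flags cannot be read from it. That the scale is log2 follows from their span (1.40 to 16.01). Array medians lay between 5.86 and 5.91.

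Of 22690 probe sets, 64 controls and 7328 with a mean at or below 4 were left out and 15298 tested. Without the controls 20380 had 1 symbol, 691 several and 1555 none. limma 3.58.1 in R 4.3.3 (lmFit, eBayes) compared ipsilateral minus contralateral, with Benjamini-Hochberg adjustment over all tested, and was tested on simulated data. The members, lists and alternatives were chosen with earlier results of these data known.

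Named were all members, up to 3 genes per list by smallest p, Sox10, Pmp22 and Ttr, and the 8 genes most correlated with the members' mean. A gene in a list stands for its brightest probe set. From the unilateral design, arrays of 1 number were taken as both sides of 1 pool of mice. Their deviations from the side means correlated at 0.09, 0.04 and 0.57 for replicates 1, 2 and 3, and at -0.37 to 0.30 for unlike numbers. Ipsilateral 2 with contralateral 1 (0.30) and ipsilateral 1 with contralateral 2 (0.19) exceeded their same-numbered pairs, so the data do not bear out the pairing for replicates 1 and 2. P-values measure the spread between arrays of 1 side, where each array is 1 pool, so pool and array spread cannot be told apart. With the replicate block they measure the spread of the differences within replicate numbers. Promoter windows matched 8 of the 9 genes, and Mbp had no entry.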

Additional observations from a re-analysis of the deposited data

How the results depend on the processing

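The settings varied were the brightness minimum (none, or a mean above 6), the scaling (quantile, or array medians) and the variance (trended and robust). Varied too were the replicate block, the choroid plexus covariate and the removal of probe sets whose identifier ends in _s_at, _x_at or _a_at. Further settings left out each array, each pair or, added after seeing the data, ipsilateral replicate 2 with contralateral replicate 1. No member passed an adjusted p of 0.05 in any setting (smallest 0.991). With the replicate block the median difference stayed at 0.10 with 0 members at an unadjusted limma p under 0.05, and the block changed no call of a member. The count over all tested was 569 with the block and 364 without it, and among the listed genes Bmp4, Sox9, Kdr and Slc6a20a passed that p with it alone, while C1qb, Cd68 and Aif1 passed with and without it. With the trended and robust variance 3 members passed that p, where 2.06% of all tested did: Mbp 1433532_a_at, 1456228_x_at and 1419646_a_at (limma, unadjusted p = 0.0173, 0.00559 and 0.0359, adjusted p = 1.00). Leaving out arrays gave 0 to 1 such members (Ugt8a, without contralateral replicate 3), 0 to 5 probe sets of any gene past the adjusted threshold (5 on dropping ipsilateral replicate 1, 2 on dropping both arrays of replicate 1) and a median of 0.01 to 0.12. The median was 0.12 after quantile normalization and 0.13 over the brightest set of each gene. It was 0.04 over the mean of each gene's sets and 0.02 below a mean of 14. Without the probe sets of those identifier endings it was 0.13, over the 7 member sets left, none of them of Mbp or Cnp.

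Of 322 single values, 287 kept their direction and 35 reversed. With the covariate Mal 1417275_at gave -0.040 and Cnp 1418980_a_at -0.0084. The ranges leaving out arrays were -0.076 to 0.10 for Mal 1417275_at, -0.22 to 0.020 for Mal 1432558_a_at, -0.077 to 0.084 for Mag, -0.062 to 0.15 for Mobp 1421010_at, -0.47 to 0.18 for Mobp 1450088_a_at, -0.017 to 0.24 for Cnp 1418980_a_at, -0.25 to 0.0048 for Cnp 1449296_a_at, -0.29 to 0.13 for Mbp 1451961_a_at, -0.37 to 0.20 for Mbp 1425263_a_at and -0.16 to 0.61 for Ugt8a 1419064_a_at. The cause was not tested. The 5 bright sets of Mbp stayed above 0 in all of these, between 0.01 and 0.23. Dim sets such as Mbp 1425264_s_at lie near the background, which limits them.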

Other observations

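Bacterial control RNAs differed in kind between arrays. The mean of the dap controls was 2.72, 2.73 and 2.30 on ipsilateral arrays 1, 2 and 3, and 15.29, 2.59 and 15.24 on the contralateral arrays. That of the lys controls was 14.21, 2.52 and 14.58 ipsilaterally and 2.52, 14.36 and 2.36 contralaterally. The phe controls were high on ipsilateral array 2 alone, at 15.22.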
